A study of Mus musculus with 22 samples.

Results

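Interferon-stimulated genes are the genes that a cell switches on when an interferon binds its receptor. A list of 40 of them was followed through the mouse spinal cord after the aorta had been clamped, and 38 of the 40 could be measured, out of 18193 genes in all. Each gene was read from the probe set with the highest mean over all arrays, among probe sets that the platform annotation gives to that gene alone. Of the 38, 22 are known mainly as targets of type I interferon (interferon alpha and beta), 6 mainly as targets of interferon gamma, and 10 as targets of both. Of the remaining pair, Ifi44 is listed with no probe set of its own, and Isg15 only with a probe set it shares with Gm9706, so neither has a value here.

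RNA of whole spinal cord segments came from wild-type C57Bl/6 mice aged 10 to 12 weeks, all without any transgene or deleted allele in the labels. The mice had undergone 7.5 min of aortic cross-clamping or a sham operation, and the cord was divided at thoracic level T6 into a rostral part above it and a caudal part below it. Affymetrix Mouse430_2 arrays were grouped as caudal sham (3 arrays), caudal 24 h (3) and caudal 48 h (4) after the clamp, and rostral sham (4), rostral 24 h (3) and rostral 48 h (4). The time after the sham operation is not given in the labels, which also do not state whether the arrays of a group come from separate mice. The p-values given below therefore cover only the scatter among these arrays, which may be technical.

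Type I interferons signal through the receptor chains Ifnar1 and Ifnar2 and the kinases Jak1 and Tyk2. These activate a complex that includes Stat2 and Irf9, which binds the interferon-stimulated response element (ISRE) in gene promoters. Interferon gamma signals through Ifngr1 and Ifngr2 to target genes that carry the gamma-activated site (GAS). In the central nervous system microglia, astrocytes, endothelial cells and invading leukocytes can all express such genes.

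Some promoters of the members hold these elements. Those of 5 members that recur in the results, all with a match, are printed here to show what a target of each kind looks like. Sequences and positions are from the RefSeq promoter table (build GRCm38.p6). Each run is the 160 bases just before the start of transcription, 5′ to 3′ on the gene's strand. Capitals mark matches to an ISRE core (GAAA, 2 bases of any kind, then GAAA) or to the GAS letters TTCNNNGAA, searched on both strands. Ifit1 lies at chr19:34640729-34640888 on the plus strand, Rsad2 at chr12:26456453-26456612 on the minus strand, Gbp2 at chr3:142620503-142620662 on the plus strand, Igtp at chr11:58199396-58199555 on the plus strand and Irf1 at chr11:53769854-53770013 on the plus strand.
Ifit1: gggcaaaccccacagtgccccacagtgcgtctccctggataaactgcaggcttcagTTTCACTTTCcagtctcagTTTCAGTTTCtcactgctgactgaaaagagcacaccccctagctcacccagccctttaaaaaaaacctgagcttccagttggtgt
Rsad2: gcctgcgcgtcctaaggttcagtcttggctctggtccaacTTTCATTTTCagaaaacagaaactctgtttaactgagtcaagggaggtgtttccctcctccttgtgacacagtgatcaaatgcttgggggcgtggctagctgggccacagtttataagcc
Gbp2: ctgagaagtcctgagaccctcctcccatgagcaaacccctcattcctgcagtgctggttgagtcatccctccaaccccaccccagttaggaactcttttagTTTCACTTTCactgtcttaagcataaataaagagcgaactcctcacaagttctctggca
Igtp: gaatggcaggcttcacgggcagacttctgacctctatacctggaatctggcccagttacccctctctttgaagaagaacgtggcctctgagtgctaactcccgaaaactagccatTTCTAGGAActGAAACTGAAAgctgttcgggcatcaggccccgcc
Irf1: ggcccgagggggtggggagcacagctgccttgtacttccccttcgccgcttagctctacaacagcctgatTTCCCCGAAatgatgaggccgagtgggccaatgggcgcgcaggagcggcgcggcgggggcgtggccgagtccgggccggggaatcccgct

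Ifit1 carries a pair of ISRE matches, Rsad2 and Gbp2 carry 1 each, Igtp carries a GAS match beside an ISRE match, and the Irf1 window holds a GAS match alone. Of the 38 members, 28 were matched in the promoter table by symbol. Over windows from 250 bases before to 50 bases after the start, 13 of these 28 (46.4%) held an ISRE match, against 1079 of the 27025 genes of the table (3.99%). A GAS match stood in 7 of the 28 (25%), against 9.55% of the table's genes. Both kinds of match stood in 4 of the 28, and neither in 12, Irf7, Irf9, Oasl1 and Oasl2 among them. Of the table's 27025 genes, 166 held both and 23530 neither. By class, the ISRE match stood in 7 of 16 type I members, 4 of 5 gamma members and 2 of 7 members of both classes, and the GAS match in 3, 2 and 2 of them. The classes thus overlap in their promoter letters, and a match describes the sequence only.

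Some arrays go against their labels or stand apart. Hoxc10, a gene of the caudal body axis, had log2 signals of 9.19 to 10.48 on the other caudal arrays and 5.32 to 6.22 on the other rostral arrays, but 5.67 on the array labelled caudal 283 (24 h) and 10.14 on the array labelled rostral 283 (24 h). Caudal array 271 (48 h) had a median correlation of 0.912 with the others, where every other array had at least 0.974. Rostral array 276 was kept out of all groups because one of its labels gives 24 h and another 48 h. Genes of heart muscle were on in all rostral 48 h arrays, at a mean log2 signal of 8.97 to 10.90 over 6 genes against 5.03 to 5.12 in rostral sham, and to a lesser level in caudal 48 h (5.99 to 7.67). Neuron markers (summed linear signal 21600 to 43100) and oligodendrocyte markers (35700 to 47800) were high in every grouped array. Array medians lay between 6.79 and 6.88 on the log2 scale.

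In caudal cord at 48 h nearly the whole list was up. Of the 38 members, 37 rose against caudal sham and none fell (limma, Benjamini-Hochberg adjusted p under 0.05 over all genes), where 5.52% of all genes rose. The members and classes were chosen with earlier results of these data known, so the counts here are a description, not an independent test. All 22 type I members, all 6 gamma members and 9 of the 10 shared ones passed. The median log2 change was 2.44 over the members and 0.0043 over all genes, and the changes ran from 0.61 (Sp100) to 4.89 (Rsad2). In 37 of the 38 every 48 h array lay above every sham array, which held for 8.9% of all genes. These are bulk samples, so more cells of a responding type and more RNA per cell cannot be told apart. The count was 37 or 38 when any 1 array was left out, and 38 without caudal arrays 271, 274 and 280 together.

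The transcription factors come first in the pathway. Irf7, which amplifies type I interferon production, had log2 signals of 6.62, 6.29 and 6.10 in caudal sham and 10.11, 10.40, 9.74 and 8.61 in caudal 48 h. All 48 h arrays lay above all sham arrays, and the fitted change was 3.38 ± 0.46 (log2, SE), or 10.4-fold (limma adjusted p = 0.000153). Irf9, the DNA-binding member of the complex that Stat2 joins, went from 7.64, 7.39 and 7.37 to 10.14, 9.98, 9.25 and 8.57, a change of 2.02 ± 0.33 (limma adjusted p = 0.00063). Irf1, a factor that interferon gamma induces, went from 8.69, 8.59 and 8.73 to 10.85, 10.92, 10.25 and 9.76. Its groups did not overlap, and the change was 1.77 ± 0.26 (limma adjusted p = 0.000236). Stat2 was the member that did not pass: it stood at 6.90, 7.0 and 6.04 in sham and at 6.35, 9.59, 8.64 and 6.83 at 48 h. Arrays 271 and 274 lay inside the sham range and arrays 272 and 273 well above it, so the groups overlapped (change 1.21 ± 0.53, limma adjusted p = 0.119). A second Stat2 probe set gave 1.45 and passed in a fit over all probe sets (limma adjusted p = 0.00614), so the probe sets of Stat2 disagree on the call.

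**Figure D1:**
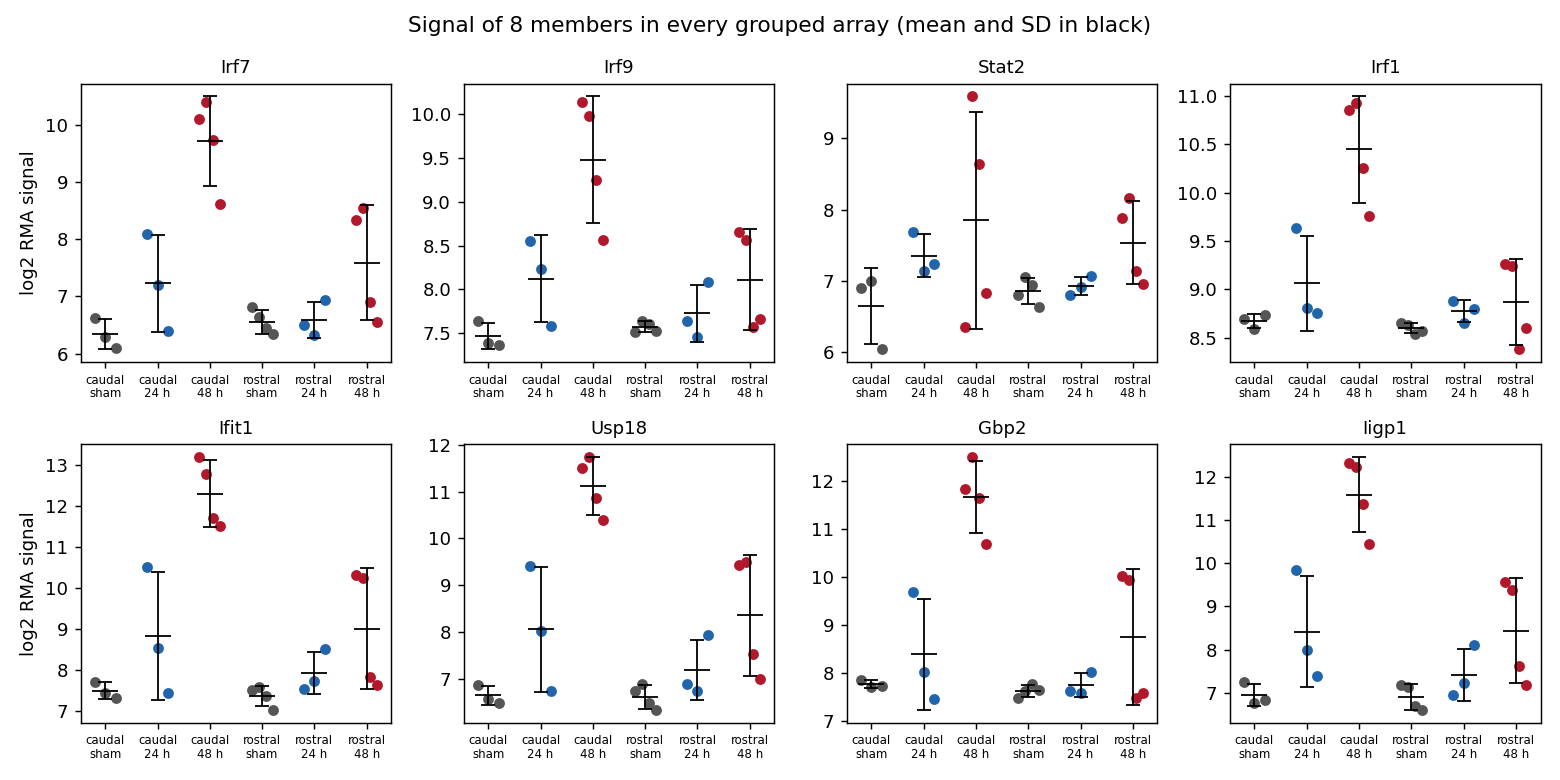
Log2 RMA signal of 8 members (Irf7, Irf9, Stat2, Irf1, Ifit1, Usp18, Gbp2 and Iigp1), 1 point per array, in the 6 groups on the horizontal axis; black lines are the mean and SD. The 4 caudal 48 h arrays of Irf7 sit between 8.61 and 10.40, all above the caudal sham arrays (6.10 to 6.62), while Stat2 at 48 h spans 6.35 to 9.59 and overlaps sham.

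Among the effector genes that act on viral RNA and its copying are the 2 largest changes of the list, followed by those of Iigp1, Usp18 and Gbp2 described further on. Ifit1, whose product binds foreign RNA ends, stood at 7.72, 7.45 and 7.32 in caudal sham and at 13.20, 12.79, 11.72 and 11.52 in caudal 48 h. That is a gap of several log2 units between the groups, with a fitted change of 4.81 ± 0.67, or 28.0-fold (limma adjusted p = 0.000169). Rsad2 encodes viperin, which makes a chain-terminating nucleotide. Its signal went from 7.90, 7.78 and 8.03 to 12.51, 13.78, 12.87 and 12.02, the largest change of the 38 at 4.89 ± 0.70, or 29.7-fold (limma adjusted p = 0.000206). Its genomic neighbour Cmpk2, a mitochondrial nucleotide kinase, changed by 1.98 ± 0.22. Ifit2 changed by 3.37 ± 0.42 and Ifit3 by 3.33 ± 0.53, and the oligoadenylate synthetase-like genes Oasl1 and Oasl2 by 3.67 ± 0.51 and 3.05 ± 0.56; all 5 passed. Oasl2 went from 7.33, 6.92 and 6.96 in sham to 9.09, 11.18, 10.58 and 9.63. Its lowest 48 h value was on array 271, which was also lowest of its group for Ifit3, Mx1, Mx2, Parp14, Stat2, Trim25 and Trim30a.

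Mx1, a dynamin-like antiviral GTPase whose gene is known to carry a deletion in C57BL/6 mice, was dim in sham at 4.39, 4.30 and 4.42, below the lower quartile of probe set signals on every array. At 48 h it stood at 5.96, 9.0, 7.56 and 6.45. Its groups did not overlap (change 2.87 ± 0.52, limma adjusted p = 0.00176). Mx2 changed by 1.98 ± 0.37 and passed.

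Among genes of the ISG15 and ubiquitin systems, Usp18 removes ISG15 from proteins and dampens signalling at the type I receptor. It went from 6.87, 6.58 and 6.49 in caudal sham to 11.51, 11.74, 10.86 and 10.39 in caudal 48 h. The 4 arrays at 48 h were close to each other and far from sham (change 4.48 ± 0.58, 22.3-fold, limma adjusted p = 9.86e-05). Trim30a changed by 2.73 ± 0.39 and Dtx3l, the ubiquitin ligase that pairs with Parp9, by 2.06 ± 0.27, and both passed. Herc6, the main ISG15 ligase of the mouse, changed by only 1.21 ± 0.21 on its brightest probe set (limma adjusted p = 0.00113). Its 3 other probe sets gave 2.64, 3.07 and 3.62, so the size of its change depends on the probe set. Over the 18 members with more than 1 probe set there were 26 further probe sets, of which all 26 were higher and 24 passed in a fit over all probe sets.

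Of the 5 nucleic acid sensors and their cofactors, all passed, and 4 changed by less than 2 on the log2 scale. Ifih1 (MDA5), a sensor of long double-stranded RNA, went from 7.45, 7.38 and 7.20 to 10.26, 11.06, 10.19 and 9.23, a change of 2.84 ± 0.37 (limma adjusted p = 0.000105). Eif2ak2 (PKR), the kinase that halts translation on double-stranded RNA, went from 6.45, 6.51 and 6.32 to 7.64, 8.41, 7.70 and 6.68. Its lowest 48 h array, 274, was just above the highest sham array (change 1.18 ± 0.24, limma adjusted p = 0.00485). Other Eif2ak2 probe sets gave larger changes of 1.68 and 1.70. Zbp1, a sensor of Z-form nucleic acid upstream of cell death, went from 6.25, 6.24 and 6.07 to 8.39, 7.80, 7.08 and 6.96. No 48 h array fell within sham (change 1.37 ± 0.25, limma adjusted p = 0.00164), and a second Zbp1 probe set gave a larger change of 2.68. Dhx58 (LGP2) changed by 1.68 ± 0.26 and Trim25, the ligase that activates RIG-I, by 1.26 ± 0.29, and both passed. Other probe sets of Dhx58 gave smaller changes of 0.80 and 0.45.

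The gamma class consists of Irf1 and 5 GTPases of the GBP and IRG families, which attack the vacuoles of intracellular pathogens. Gbp2 stood at 7.86, 7.70 and 7.72 in caudal sham and at 11.83, 12.50, 11.64 and 10.69 in caudal 48 h (change 3.90 ± 0.57, 14.9-fold, limma adjusted p = 0.000253). Iigp1 (Irga6) stood at 7.25, 6.77 and 6.83 and then at 12.31, 12.22, 11.37 and 10.45 (change 4.64 ± 0.59, 24.9-fold, limma adjusted p = 8.85e-05). Irgm1 went from 8.33, 8.33 and 8.15 to 11.76, 12.42, 11.70 and 10.53 (change 3.33 ± 0.46). All 3 separated fully from sham, and array 274 was the lowest 48 h array for each. Igtp (Irgm3) went from 8.53, 8.44 and 8.13 to 11.84, 12.23, 11.21 and 10.79 (change 3.15 ± 0.43), and Gbp3 from 7.83, 7.82 and 7.59 to 9.89, 11.53, 10.86 and 9.87 (change 2.79 ± 0.46). Both passed. The median log2 change of the 6 gamma members was 3.24, beside 2.86 for the 22 type I members and 2.01 for the 10 shared ones. The lowest gamma change (Irf1, 1.77) lay within the type I range of 1.18 (Eif2ak2) to 4.89 (Rsad2), so the 2 classes were not separated by size; the difference between classes was not tested.

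The members of both classes included the smallest changes. Parp9 and Parp14, of the ADP-ribosyltransferase family, changed by 2.49 ± 0.30 and 2.13 ± 0.47. Parp14 went from 7.09, 6.91 and 7.06 to 8.12, 10.75, 9.14 and 8.58, with array 272 far above the others. Ifitm3, which blocks the fusion of viruses with endosomes, was already bright in sham at 10.83, 10.76 and 10.92. It reached 12.78, 12.94, 12.53 and 12.01 (change 1.73 ± 0.32, limma adjusted p = 0.00227). Sp100, a nuclear body protein, had the smallest change of all: 5.73, 5.56 and 5.77 in sham against 6.36, 6.36, 6.08 and 6.39 (0.61 ± 0.10, limma adjusted p = 0.000667). Its groups were apart, but a second Sp100 probe set of nearly the same brightness gave 0.36 and did not pass. Ifi35 (2.27) and Samd9l (2.00), also of both classes, passed. Of the type I members not yet given, Bst2 (tetherin, 2.93), Rtp4 (3.38), Tor3a (2.40), Xaf1 (2.19) and Lgals3bp (1.95) passed; a dim second probe set of Xaf1 gave 0.55 and did not.

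In rostral cord at 48 h, above the level of the division, no member passed the test (limma, 0 of 38), where 0.467% of all genes rose. An unadjusted p under 0.05 was found for 16 members and for 1288 of all 18193 genes. All 38 fitted changes were above 0, against 41.8% of those of all genes. The members' median was 0.69 against -0.0235 over all genes, and the highest value was 1.74 ± 0.54 for Usp18 (limma adjusted p = 0.223). The mean hides a split among the arrays. Ifit1 stood at 7.52, 7.59, 7.37 and 7.03 in rostral sham and at 10.33, 10.25, 7.83 and 7.65 in rostral 48 h. Gbp2 stood at 7.48, 7.62, 7.77 and 7.64, and then at 10.01, 9.93, 7.49 and 7.58. Arrays 271 and 272 were thus far above sham, while 273 and 274 were at or just above it. The groups of Ifit1 did not overlap, and those of Gbp2 did.

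The same split ran through the list. On rostral array 271 the median member lay 1.29 above the rostral sham mean and 37 of 38 members lay above every sham array; on array 272 these values were 1.34 and 38. On array 273 they were 0.14 and 18, and on array 274 they were 0.07 and 11. Of all genes, 25.6%, 23.8%, 21.8% and 18.5% lay above every sham array on these 4. Only 8 of 38 members had all rostral 48 h arrays above all sham arrays, beside 4.63% of all genes. With arrays weighted by their scatter within groups in these same data, 21 of the 38 passed. Without array 274, 1 did. The shares of all genes passing in these fits are not given here. The heart muscle genes were on in all 4 arrays, at a mean log2 signal over 6 genes of 8.97, 10.84, 10.90 and 10.26 on arrays 271 to 274. Tnnt2, a heart troponin, stood at 10.19, 11.55, 11.24 and 10.96 on these arrays, against 5.69 to 6.06 in rostral sham. The mean log2 signal of the 6 monocyte markers was 7.50, 7.54, 6.98 and 6.78 on these arrays, against 6.66 to 6.77 in sham. Plac8, Fcgr1 and Cybb were higher on arrays 271 and 272 than on 273 and 274. Cd14 was high on array 273 too (9.55, 9.90, 9.48 and 8.22, against 7.52 to 7.77 in sham). Ccr2 differed little (8.02, 7.78, 7.80 and 7.75). The part of these markers and of the heart muscle genes in the split was not tested.

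**Figure D2:**
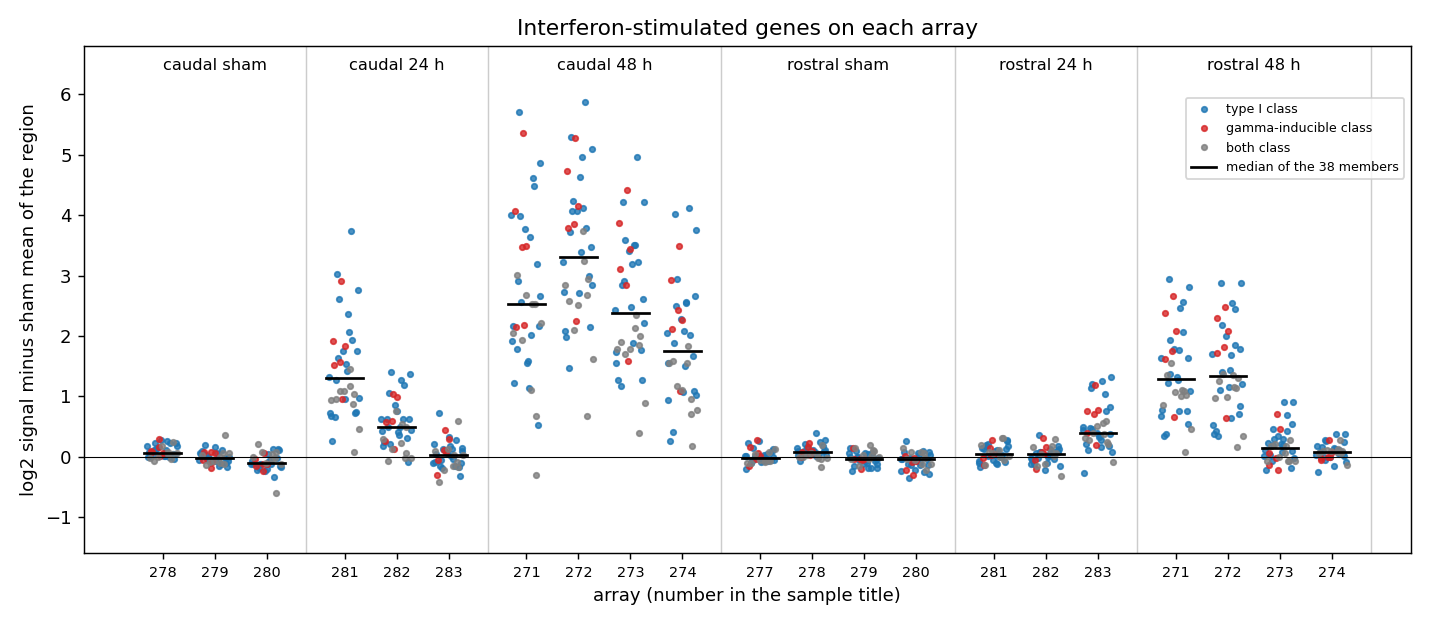
Log2 signal of each of the 38 members minus its mean in the sham arrays of the same region, for every grouped array (horizontal axis, numbered as in the sample titles); colours give the interferon class and black bars the median. Caudal 48 h medians lie between 1.75 and 3.31, rostral 48 h splits into 2 arrays near 1.3 and 2 near sham, and at 24 h caudal array 281 stands highest at 1.30.

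At 24 h no member passed in either region. In caudal cord (limma, 0 of 38) 0.0055% of all genes rose. An unadjusted p under 0.05 was found for 5 members and for 528 of all 18193 genes. The members' fitted changes had a median of 0.62, and the highest was Iigp1 at 1.46 ± 0.63. Of the 38 changes 37 were above 0, against 48.9% of those of all genes. The 3 arrays differed widely. Ifit1 stood at 10.52 on array 281, 8.55 on array 282 and 7.44 on the array labelled caudal 283, against 7.32 to 7.72 in sham. Usp18 stood at 9.41, 8.02 and 6.75 on the same arrays, against 6.49 to 6.87. Array 281 was high, 282 lay between, and 283 was inside sham for both genes. The median member lay 1.30, 0.49 and 0.03 above sham on the 3 arrays, and 37, 33 and 11 of the members lay above every sham array, beside 25.9%, 29.4% and 29.6% of all genes. On array 283 the members' share was thus near that of all genes. The mean log2 signal of the 6 monocyte markers followed the same order, at 7.76, 7.02 and 6.76 on these arrays against 6.67 to 7.0 in sham. Cd14, Plac8, Fcgr1 and Cybb each followed it. Ccr2 (7.90, 7.38 and 7.99) and Ms4a7 (5.84, 5.92 and 5.79) did not. Cd14 and Fcgr1 lay above sham on all 3 arrays. Plac8 did so on none (7.51 on array 281, against 6.33 to 7.76 in sham). Cybb was above sham on array 281 only (7.26, and 6.28 on array 282, against 6.13 to 6.68 in sham). The part of these markers in the result was not tested.

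In rostral cord at 24 h (limma, 0 of 38) 0.0% of all genes rose. An unadjusted p under 0.05 was found for 1 member and for 142 of all 18193 genes. The median change of the members was 0.17. Arrays 281 and 282 lay 0.05 above sham at the median member, and the array labelled rostral 283 lay 0.40 above it, with 34 of 38 members above every sham array, beside 23.1% of all genes. Irf7, for example, stood at 6.5 and 6.33 on arrays 281 and 282 and at 6.94 on the array labelled rostral 283, against 6.33 to 6.81 in sham. Both arrays numbered 283 are the ones whose Hox genes go against their region labels. Without them the caudal 24 h median was 0.89 with all 38 members above 0 and a highest value of 2.18, the rostral 24 h median was 0.05 with 25 above 0, and the count stayed at 0 in both.

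**Figure D3:**
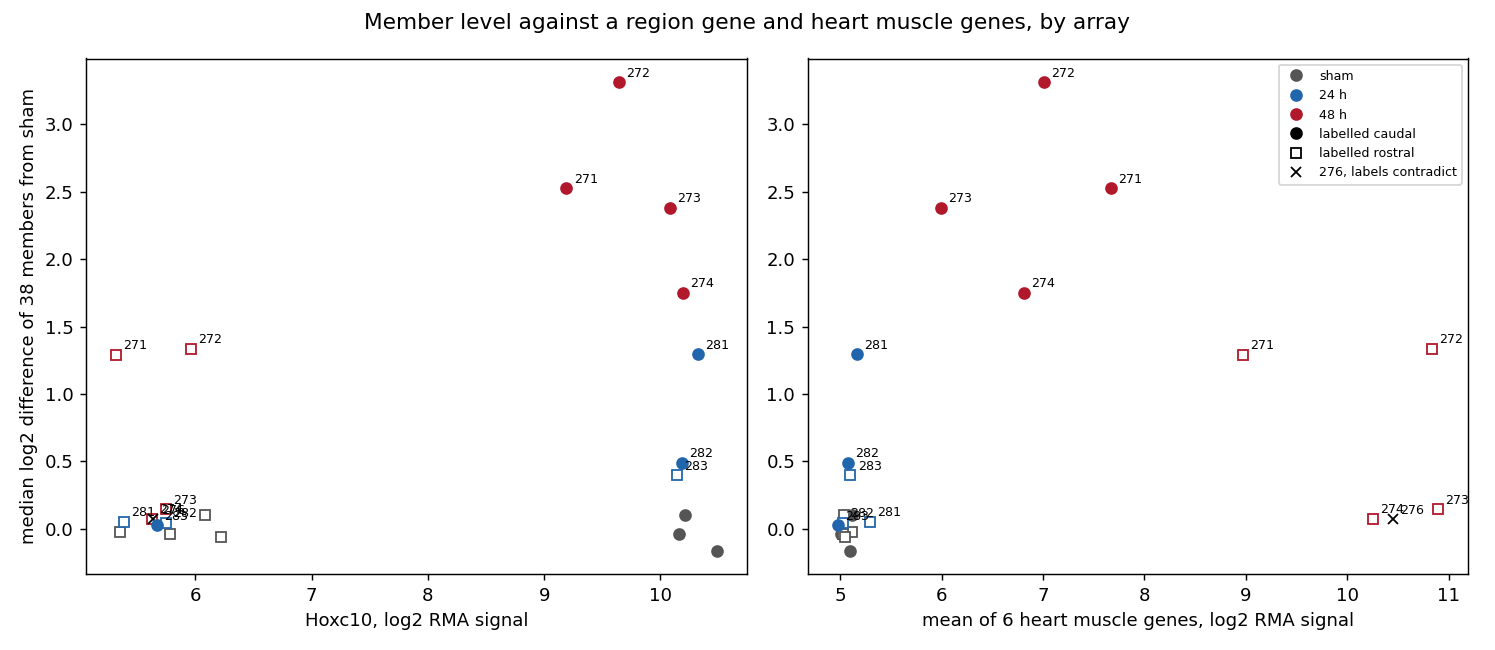
Each point is an array: the median log2 difference of the 38 members from sham of the labelled region (vertical) against the log2 signal of Hoxc10 (left) and the mean log2 signal of 6 heart muscle genes (right); a sham array is set against the other sham arrays of its region. The array labelled rostral 283 (0.40) lies at the Hoxc10 level of caudal arrays and the array labelled caudal 283 (0.03) at that of rostral arrays; rostral 48 h arrays have high heart muscle signal (8.97 to 10.90) whether their members are near sham or not.

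Between 24 h and 48 h in caudal cord, 36 of the 38 members rose (4.24% of all genes did), by a median of 1.95; Stat2 (0.50) and Herc6 (0.54) did not pass. This count rests on few arrays. It was 14 without the array labelled caudal 283, 9 without both arrays numbered 283 and 0 in a fit of the 2 groups alone. Ifit1 was at most 10.52 at 24 h and at least 11.52 at 48 h, so its groups did not overlap. In rostral cord no member passed between the times (limma, 0 of 38), where 0.346% of all genes rose. An unadjusted p under 0.05 was found for 2 members and for 956 of all 18193 genes.

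In sham, no member passed between caudal and rostral cord (limma, 0 of 38), where 0.33% of all genes were higher in caudal. An unadjusted p under 0.05 was found for 2 members and for 1003 of all 18193 genes. The median difference of the members was 0.02. In fits of the 2 groups alone and with array weights, 3 and 1 members passed (shares of all genes not given here). At 48 h the regions differed: 34 of the 38 were higher in caudal cord (5.57% of all genes were), by a median of 1.86. The exceptions were Stat2, Oasl2 (1.59, limma adjusted p = 0.0576), Herc6 and Lgals3bp (0.96, limma adjusted p = 0.0542). In a fit of these 2 groups alone, 4 passed.

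The test of the regional difference itself asks whether the 48 h effect in caudal cord exceeded that in rostral cord, and 5 of 38 members passed it (0.407% of all genes did): Ifit2, Ifih1, Cmpk2, Parp9 and Tor3a. Tor3a, an ATPase of the torsin family, stood at 6.66, 6.59 and 6.60 in caudal sham and 9.80, 9.61, 8.38 and 8.28 in caudal 48 h. Its rostral values were 6.59, 6.82, 6.58 and 6.61 in sham and 7.41, 7.36, 6.47 and 6.72 at 48 h. The caudal groups were thus far apart and the rostral ones overlapped, with a difference of effects of 2.06 ± 0.43 (limma adjusted p = 0.0304). Cmpk2 had the smallest p, with a difference of 1.61 ± 0.30 (limma adjusted p = 0.0157). All 38 differences were above 0, against 52.5% of those of all genes (median 1.66, against 0.0213 over all genes). An unadjusted p under 0.05 was found for 35 members and for 2228 of all 18193 genes. The largest differences, Rsad2 (3.44 ± 0.95) and Ifit1 (3.17 ± 0.91), did not pass. This count depended on single arrays. It was 28 without caudal 48 h array 274 and 10 without rostral 48 h array 271, but 0 without caudal sham array 278 or 280. It was 1 without caudal 48 h array 272, caudal sham array 279, rostral 48 h array 273 or 274, or any 1 rostral sham array. It was 32 with array weights and 25 without caudal arrays 271, 274 and 280. The shares of all genes passing in these alternative fits are not given here. No member passed for the 24 h effect (limma, 0 of 38), and 0.0% of all genes did. An unadjusted p under 0.05 was found for 0 members and for 338 of all 18193 genes.

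**Figure D4:**
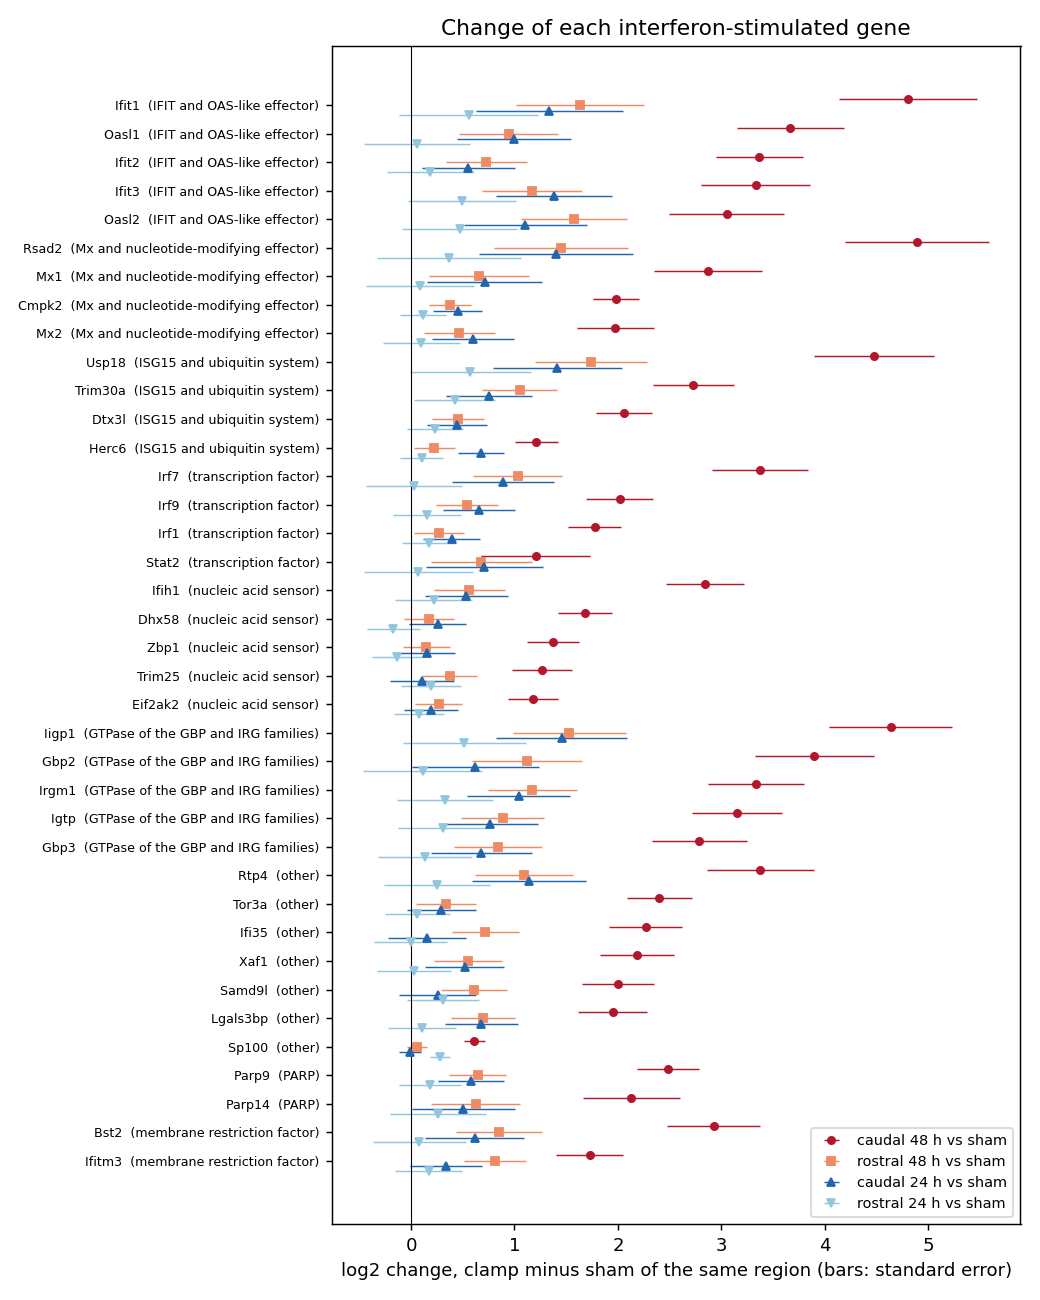
Fitted log2 change of each of the 38 members, grouped by role, for caudal and rostral cord at 24 h and 48 h against sham of the same region; bars are standard errors. Caudal 48 h lies farthest right for every member, from 0.61 (Sp100) to 4.89 (Rsad2), and the rostral 48 h changes lie between 0.06 (Sp100) and 1.74 (Usp18).

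Upstream of these genes, the interferons themselves gave little signal. None of the 6 ligands measured passed in caudal 48 h. Ifnb1 stood at 5.06, 5.32 and 5.21 in sham and at 7.0, 5.55, 5.85 and 5.46 at 48 h. All its 48 h arrays were above sham, only array 271 by more than 1, and the change of 0.77 ± 0.25 did not pass (limma adjusted p = 0.0512). On array 271, 50.6% of all genes lay above every caudal sham array, against 27.2%, 27.6% and 34.7% on arrays 272 to 274. Ifng stood between 3.90 and 4.05 in sham and between 3.92 and 4.48 at 48 h (change 0.12 ± 0.12), below the lower quartile of probe set signals in sham. None of the 6 receptor chains passed against sham, Ifnar1 at 0.01 ± 0.13 and Ifngr1 at 0.37 ± 0.12 (limma adjusted p = 0.0519) among them, nor did Jak1, Jak2 or Tyk2.

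Of the 10 genes measured that sense nucleic acid or drive interferon production, 4 rose in caudal 48 h and none fell: Ddx58 (RIG-I, 1.79 ± 0.40), Irf8 (1.28 ± 0.23), Tlr3 (1.24 ± 0.14) and Sting1 (0.96 ± 0.20). Irf3 (0.11 ± 0.13) did not pass. Of the 4 feedback inhibitors, 3 rose. Socs3, which also answers to interleukin 6, went from 6.92, 6.76 and 6.86 to 11.62, 11.53, 10.66 and 8.95 (3.84 ± 0.65). Socs1, the inhibitor of interferon receptor kinases, went from 5.34, 5.75 and 5.44 to 7.27, 7.27, 6.42 and 5.97 (1.22 ± 0.23). For both, all 48 h arrays lay above sham and array 274 was the lowest. Ptpn2, a phosphatase of the pathway's kinases, changed by 0.90 ± 0.15. None of these genes passed in rostral 48 h or at 24 h.

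Markers of other cells went in different directions in caudal 48 h. Of 6 monocyte markers, 4 rose (Cd14 by 4.54, Fcgr1 by 2.79, Cybb by 2.50 and Plac8 by 1.86). Their summed linear signal was 667 to 855 in caudal sham, 777 to 1800 in caudal 24 h and 2750 to 11900 in caudal 48 h, and it was 701 to 771 in rostral sham and 841 to 1750 in rostral 48 h. Ccr2, the receptor that defines inflammatory monocytes, did not pass (0.61 ± 0.27) and was raised mainly on array 271 (9.31, against 7.83 to 7.90 on the other 3). Of 4 neutrophil markers measured, Mmp8 rose, and the summed signal ranged from 1890 to 7670 in caudal sham and from 2890 to 23900 in caudal 48 h. None of 7 T and NK cell markers, 4 plasmacytoid dendritic and B cell markers or 4 oligodendrocyte markers passed. Of 5 microglial markers Sall1 fell, of 5 endothelial markers Cldn5 and Tek fell, of 5 neuronal markers Nefl and Map2 fell, and of 5 astrocyte markers Gfap rose. Of all 18193 genes, 1277 fell and 1005 rose in this comparison. The part of these cell types in the member values was not tested.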

How the data were processed

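Total RNA from rostral and caudal spinal cord was measured on 22 arrays. The deposited log2 signals are RMA values, a tool named without a version in the submitters' processing notes. RMA as commonly run equalises the signal distributions of arrays, so a shift shared by all genes cannot be seen. Values were used as deposited. Of 45101 probe sets, 34945 carry 1 gene symbol, and the one with the highest mean per gene gave 18193 genes.

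Group means of 6 groups were estimated from 21 arrays in limma 3.58.1 (R 4.3.3, statmod 1.5.0). P-values were two-sided and Benjamini-Hochberg adjusted over all genes in each contrast, with calls at 0.05. The script was tested on simulated data. The members, classes and marker lists were chosen with earlier results of these data known. The rule for named genes was all members, with array values for the transcription factors and 1 or more genes of each role, and the genes of the pathway and marker lists. Title numbers are shared by caudal and rostral arrays, but the labels do not say they mark a mouse. The alternatives varied probe set choice, a filter on dim genes, normalization, centring, variance model, array weights, samples fitted, blocks and left-out arrays. Their precision is limited by 3 or 4 arrays a group. Column totals carry no depth.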

Additional observations from a re-analysis of the deposited data

Results flagged for a closer look

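In 2 of 114 member and group combinations, a single array stood far from the rest of its group (chance alone gives such a gap in about 1 of 20 groups, and groups of 3 arrays were not examined). Sp100 was 6.08 on caudal 48 h array 273, below 6.36 to 6.39 on the other 3. Tor3a was 6.82 on rostral sham array 278, above 6.58 to 6.61 on the other 3.

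For 5 members the 48 h effect differed between regions (caudal minus rostral, log2): 2.64 for Ifit2, 2.28 for Ifih1, 1.61 for Cmpk2, 1.84 for Parp9 and 2.06 for Tor3a, with limma adjusted p of 0.0415, 0.0494, 0.0157, 0.0482 and 0.0304.

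On rostral array 276, which is in no group, 16 members lay above every rostral sham array, among them Ifi35 at 9.06 (highest sham 8.63) and Samd9l at 7.77 (highest sham 7.65). Of all genes, 26.7% lay above every rostral sham array there.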

How the results depend on the processing

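The count of members that rose in caudal 48 h stayed within 1.5 times of 37 under every alternative run (25 in a fit of the 2 groups alone; 37 to 38 with 1 array left out). Counts that moved were these. The share of all genes passing under each alternative is not given here, so a move may be shared by genes in general. For rostral 48 h against sham, 0 members became 21 with array weights, and 0 to 1 with 1 array left out. For caudal 24 h against sham, 0 became 1 with array weights. For caudal 48 h against 24 h, 36 became 9 without both arrays numbered 283 and 0 in the compared groups alone, and 14 to 37 with 1 array left out. For caudal against rostral sham, 0 became 1 with array weights and 3 in the compared groups alone; at 48 h, 34 became 4 in the compared groups alone. For the difference between regions of the 48 h effect, 5 became 32 with array weights, 8 with centred arrays, 1 of 27 with brighter genes only, 2 in the compared groups alone, 2 with the mean of probe sets, 25 without caudal arrays 271, 274 and 280, and 0 to 28 with 1 array left out. With the title number as a replicate block this count was 15 (fixed block) and 12 (random block). Same-numbered arrays had correlations of deviations of 0.2455 to 0.5343 at 48 h, 0.0866 to 0.282 in sham and -0.4495 to -0.0287 at 24 h. The 24 h group means include both arrays numbered 283, whose Hox genes go against their region labels. The 24 h correlations therefore cannot settle whether arrays of 1 number pair. Of single members in rostral 48 h, Dhx58 (0.17) ran from -0.0276 to 0.3122 with 1 array left out, and Sp100 (0.06) was -0.0144 with the probe set brightest over the 21 grouped arrays, a choice added after seeing the data. For counts that moved with a fit of fewer arrays, fewer samples entered; otherwise the cause was not tested. Dim genes such as Mx1 and Oasl1, and 3 or 4 arrays a group, limit precision.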

Other observations

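On rostral array 276 the median member lay 0.07 above the rostral sham mean, with the highest difference for Iigp1 (0.75) and the lowest for Eif2ak2 (-0.31). Its heart muscle genes had a mean log2 signal of 10.45 and its Hoxc10 signal was 5.64. In the 48 h caudal arrays, array 272 was highest of its group for 27 of the 38 members and array 274 lowest for 29, where 13.0% and 20.3% of all genes had these places.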
